A study of Mus musculus with 12 samples.

Results

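Fgf14 and 7 other genes of voltage-gated sodium channels and their intracellular partners were followed across the cerebellum of 4 groups of mice. The genes were Fgf14, Fgf12 and Fgf13, the channel genes Scn1a and Scn8a, and the accessory subunit genes Scn2b, Scn3b and Scn4b. They are 8 of the 18194 genes that the array annotation names through a probe set with 1 gene symbol. Together they have 23 probe sets, each a group of short array sequences that reads 1 transcript region. Each probe set was described by itself. The genes were chosen on their log2 differences between 118Q knockin and littermates, known from an earlier look at these arrays, so their values in that line and in every comparison that uses its knockin arrays are given as a description, with no p for a single gene.

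The study measured total cerebellar RNA of mice aged 6 weeks on a C57BL/6 background, with 3 arrays for each of 4 genotypes. Knockin mice carried the Sca6 allele on both chromosomes, as MPI 11Q/11Q or MPI 118Q/118Q, and the controls were wild type littermates of each line (MPI 11Q-WT and MPI 118Q-WT). The allele lies in Cacna1a, which codes for the pore of a calcium channel, the P/Q type. It is the gene of spinocerebellar ataxia type SCA6, and the names of the lines give the number of glutamines, 11 or 118, in the tract that it codes for. Samples were labelled cerebellum without separation of cell types, so fewer cells of a type and less RNA per cell cannot be told apart in any value below. The labels give neither sex nor the number of founder clones per line, and nothing beyond the group size states that each array is a separate mouse, so the tests measure the spread between these arrays.

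Voltage-gated sodium channels open on depolarisation and produce the rising phase of the action potential. Each consists of a large alpha subunit, which forms the pore, and smaller beta subunits, which change its gating and its place on the membrane. Fgf11 to Fgf14 code for fibroblast growth factor homologous factors, which, unlike other growth factors of that family, stay inside the cell and bind the cytoplasmic tail of the alpha subunit. Fgf14 is concentrated at the axon initial segment, where action potentials start, and is needed for the regular firing of Purkinje cells. Mutations of FGF14 cause a form of spinocerebellar ataxia in humans.

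The deposited values are log2 levels, so a difference of 1 is a doubling, and they serve here to compare arrays within a probe set, not genes with each other. Of the 23 probe sets, 18 lay above a filter that removed the dimmest 40% of all probe sets by the mean of the 12 arrays. The 5 that did not pass were Fgf14 1449958_a_at, Fgf13 1418498_at, Scn1a 1441728_at, Scn8a 1442208_at and Scn3b 1426328_a_at. Their means over the 12 arrays were 1.29, 1.58, 0.98, 0.77 and 0.53, in that order, against a filter level of 1.58. Each gene kept at least 1 probe set, with 4 for Scn8a, 3 each for Fgf14, Fgf12 and Scn2b, 2 for Scn1a and 1 each for Fgf13, Scn3b and Scn4b.

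Pairs of arrays correlated at 0.980 to 0.995 over all probe sets. The 3 Cacna1a probe sets above the filter differed between 118Q knockin and littermates by -0.34, -0.14 and 0.17, with limma adjusted p of 0.288, 0.714 and 0.728. The knockin changes a repeat inside the coding sequence, so these levels do not check the genotype. Markers of the forebrain that should be low in cerebellum (Tbr1, Emx1 and Drd2) all lay below the filter, while 11 of 11 granule cell and 14 of 14 Purkinje cell marker genes on the array lay above it. The 3 arrays of 118Q knockin mice stood apart in the 18S ribosomal RNA control, at 8.56 to 9.23 against 9.66 to 10.54 on the other 9 arrays. They also stood apart in gene span, meaning the genomic length between both ends of a gene. The rank correlation of span with an array's deviation from the mean of the 12, over 22711 probe sets, was -0.32 to -0.22 on these 3 arrays and -0.04 to 0.22 on the other 9. The array controls phe and lys read 3.91 to 4.26 and 2.74 to 2.80 on these 3 arrays, and at most 3.74 and 2.69 on the rest. The 3' minus 5' signal of Gapdh was -0.16 to -0.12 against -0.11 to 0.13. The controls dap and thr and the same signal of actin overlapped. The part of these controls in the differences below was not tested.

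RefSeq promoter windows (GRCm38.p6) were matched by symbol for 7 of the 8 genes, at 14 starts; Scn3b had no match. The 250 bases before the start are shown for the 3 genes with a probe set whose 118Q knockin levels all lay more than 0.05 below those of all littermates. Capitals mark the GC box, GGGCGG on either strand, and also the E-box, whose letters are CANNTG on either strand; no match overlapped another. For Scn8a the first of its 2 starts is shown.

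Fgf14 (chr14:124192547-124192796, minus strand): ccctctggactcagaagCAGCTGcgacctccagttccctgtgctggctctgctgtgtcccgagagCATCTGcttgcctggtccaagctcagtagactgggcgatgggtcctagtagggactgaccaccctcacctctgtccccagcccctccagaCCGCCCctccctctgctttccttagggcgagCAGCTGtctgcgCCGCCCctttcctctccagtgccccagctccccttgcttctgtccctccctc

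Scn8a (chr15:100870395-100870644, plus strand): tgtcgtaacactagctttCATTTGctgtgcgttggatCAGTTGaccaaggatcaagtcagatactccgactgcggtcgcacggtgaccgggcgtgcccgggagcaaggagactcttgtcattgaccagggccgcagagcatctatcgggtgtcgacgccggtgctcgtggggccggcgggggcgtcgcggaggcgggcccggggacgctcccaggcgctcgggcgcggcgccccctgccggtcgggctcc

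Scn4b (chr9:45138374-45138623, plus strand): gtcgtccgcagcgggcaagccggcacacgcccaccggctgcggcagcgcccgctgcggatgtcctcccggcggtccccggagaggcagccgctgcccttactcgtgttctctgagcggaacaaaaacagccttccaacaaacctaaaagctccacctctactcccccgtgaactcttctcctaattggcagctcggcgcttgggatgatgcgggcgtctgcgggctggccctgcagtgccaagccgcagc

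The Fgf14 window held 2 GC boxes and 3 E-boxes, the Scn8a window 2 E-boxes and no GC box, and the Scn4b window neither of them. Over all 32851 windows of this length, 32.7% held a GC box and 66.2% an E-box on either strand. All 3 were richer in G and C than the median window, at 64%, 68% and 66% against 52.4%. A CCAAT box, searched as CCAAT on both strands, occurred in the Scn4b window and in 33.8% of all windows. No TATAAA and no TTCAGCACC, the left part of the RE1 element of neuronal genes, was found in any of the 14 windows, against 12.4% and 0.301% of all windows. The 3 windows thus shared a G and C content above that median, and none of the motifs searched was in all of them. This content was not particular to them, since the Fgf12 windows held 58.4% to 69.2% and the Fgf13 windows 40.4% to 74.8%. The second Scn8a start, not shown, had 53.2%.

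Fgf14 was lower in the 118Q knockin cerebellum by about 3-fold on both of its bright probe sets, with no difference past the test on either in the 11Q line. On 1458830_at the log2 levels were 8.09, 7.99 and 8.31 in the 118Q littermates and 7.01, 5.98 and 6.48 in the 118Q knockin. The 11Q arrays read 8.56, 8.42 and 8.52 in littermates and 8.49, 8.52 and 8.40 in the knockin. All 3 arrays of the 118Q knockin therefore lay below the other 9, with a gap of 0.98 between the highest of them and the lowest of the rest, and they spread over 1.03 units where the 118Q littermates spread over 0.31. The group means were 8.13 ± 0.16 and 6.49 ± 0.51 (SD, n = 3 each) in the 118Q line, a difference of -1.64 ± 0.20 (SE; 95% interval -2.07 to -1.21), or 3.11-fold. This difference lies at percentile 0.0850 of all 27060 probe sets above the filter, close to the lowest.

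The other bright Fgf14 probe set, 1447480_at, had the same arrangement of arrays. Levels were 7.91, 7.93 and 7.91 in the 118Q littermates and 6.88, 5.43 and 6.22 in the knockin. In the 11Q line they were 8.21, 8.003 and 7.83 in littermates and 8.05, 8.10 and 7.87 in the knockin. The 118Q difference was -1.74 ± 0.26 (SE; 95% interval -2.31 to -1.17), or 3.34-fold, and the 3 littermates spread over only 0.02 units against 1.45 in the knockin. The second knockin array was the lowest and the first the highest on both probe sets. Left out in turn, single arrays moved the 2 differences between -1.90 and -1.38 and between -2.09 and -1.37.

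Another Fgf14 probe set, 1435747_at, did not share this pattern. It read 5.46, 5.86 and 6.06 in the 118Q littermates and 5.97, 5.44 and 5.62 in the knockin, so the groups overlapped. The difference was -0.11 ± 0.19 (SE; 95% interval -0.52 to 0.29), an interval that does not reach the differences of the other probe sets. Within an array, the level on 1458830_at minus that on 1435747_at was 2.34 ± 0.26 in the 118Q littermates and 0.82 ± 0.25 in the knockin (SD, n = 3). In the 11Q line the same quantity was 2.62 ± 0.21 and 2.59 ± 0.31. Probe sets of a gene can read different transcript regions, and which Fgf14 transcripts each one reads was not analysed here. The fourth, 1449958_a_at, lay between 1.10 and 1.46 on all 12 arrays, below the filter.

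**Figure D1:**
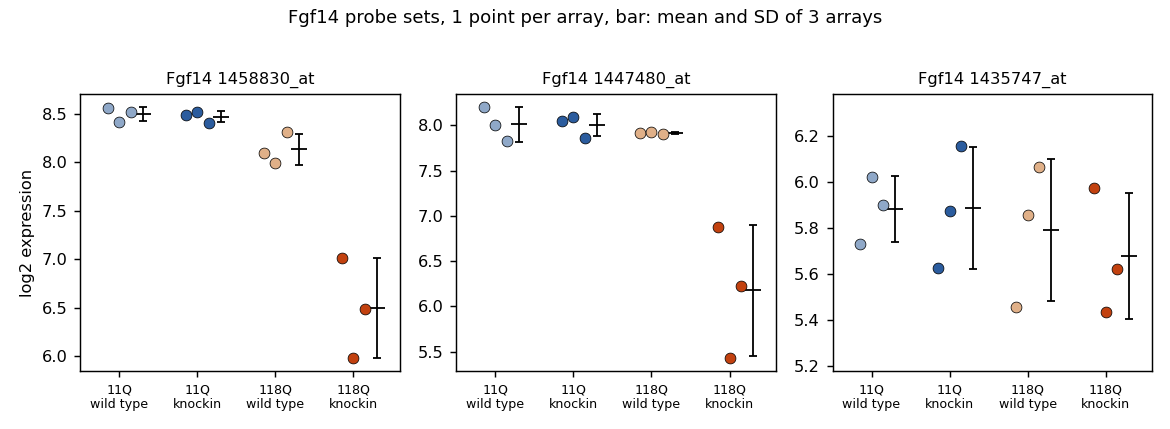
Log2 level of the 3 Fgf14 probe sets above the filter on each array, by group (3 points per group, drawn in the order of the array labels), with the mean and SD beside them. On 1458830_at and 1447480_at the 3 arrays of the 118Q knockin lie between 5.43 and 7.01 and below the other 9, while on 1435747_at the groups overlap.

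Across the 4 groups, Fgf14 on 1458830_at ran from 8.50 ± 0.07 in 11Q littermates and 8.47 ± 0.06 in 11Q knockin through 8.13 ± 0.16 in 118Q littermates to 6.49 ± 0.51 in 118Q knockin. The first pair of neighbours differed by less than the spread of either group. The 118Q littermates lay below all 3 arrays of the 11Q littermates, by -0.37 ± 0.20, which did not pass the test (adjusted p = 1.0 in limma). The last step is the difference described above.

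Fgf12 and Fgf13, the closest relatives of Fgf14 among the 8 genes, showed no such difference in the 118Q line. Fgf12 stood at 7.01, 7.34 and 7.22 in littermates and 7.33, 7.23 and 7.19 in the 118Q knockin on 1440270_at, a difference of 0.06 ± 0.12 (SE). Its other probe sets differed by -0.11 ± 0.17 (1436432_at) and 0.10 ± 0.12 (1451693_a_at). The 3 intervals together reach from -0.48 to 0.37, so a change of the size seen in Fgf14 lies outside each of them. Fgf13, an X-linked homologous factor that also binds microtubules, read 6.11, 6.27 and 5.90 in littermates and 6.27, 5.64 and 5.88 in the knockin on 1418497_at. Its difference was -0.16 ± 0.16 (95% interval -0.51 to 0.18). These arrays overlapped for all 4 probe sets of the 2 genes.

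Fgf12 and Fgf13 share with Fgf14 a very long gene. The 3 spans are 703 kb for Fgf14, 595 kb for Fgf12 and 523 kb for Fgf13, at percentiles 99.4, 99.2 and 98.96 of the genes with a span. With the trend of level on span removed within each array, the bright Fgf14 probe sets differed by -1.47 and -1.57 in the 118Q line and 1435747_at by 0.06. The 3 Fgf12 probe sets, in the order above, differed by 0.22, 0.05 and 0.27, and Fgf13 by -0.01. Scn8a 1423515_at, from a gene of 176 kb that is described next, differed by -0.42. With the trend removed, 2 of the 18 probe sets passed an adjusted p of 0.05 in limma where 3 had passed. Over all probe sets, 15 of the 22711 with a span then passed, where 608 of 27060 had passed. The part of gene span in these differences was not tested.

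Scn8a, the alpha subunit that predominates at the axon initial segment and nodes of mature neurons and carries much of the persistent and resurgent sodium current of Purkinje cells, was lower in the 118Q knockin on its 2 brightest probe sets. On 1423515_at it read 7.90, 7.68 and 7.95 in littermates and 7.42, 7.20 and 7.38 in the knockin, with means of 7.84 ± 0.14 and 7.33 ± 0.12 (SD, n = 3 each). On 1457412_at the levels were 6.43, 6.18 and 6.41 against 5.84, 5.97 and 5.89. In both cases all 3 knockin arrays lay below the other 9 of the study. The differences were -0.51 ± 0.12 (SE), or 1.42-fold, and -0.44 ± 0.12, or 1.36-fold.

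The other Scn8a probe sets were less clear. On 1439889_at the levels were 6.06, 5.64 and 5.63 in littermates and 5.82, 5.21 and 5.47 in the 118Q knockin, overlapping, with a difference of -0.28 ± 0.19. On 1451894_a_at the groups overlapped too and the difference was -0.04 ± 0.31. That probe set had 1 low array among the 11Q littermates, at 4.002 against 5.25 and 5.50 on the others. Without that array, its 11Q difference moved from 0.42 to -0.03.

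Scn1a, the alpha subunit gene of Dravet syndrome, which in cerebellum is known from interneurons and Purkinje cells, showed wide and overlapping values. On 1450121_at it stood at 6.999, 7.24 and 7.47 in 118Q littermates and 7.34, 6.61 and 6.83 in the knockin, a difference of -0.31 ± 0.18 (95% interval -0.69 to 0.08). The first knockin array lay among the littermates, and the other 2 lay below all 9 arrays of the other groups. The second probe set, 1450120_at, differed by 0.20 ± 0.37, the widest error among the 18.

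Among the beta subunits, Scn4b was the one whose 118Q knockin arrays all lay more than 0.05 below those of the littermates. Its product, linked to the alpha subunit by a disulfide bond, is known for a cytoplasmic tail that can block the open channel and give resurgent current. On its probe set 1434008_at, the levels were 6.01, 5.94 and 6.03 in littermates and 5.84, 4.77 and 4.98 in the knockin. One knockin array therefore lay 0.10 below the lowest littermate, close to the 11Q knockin, and the other 2 lay about 1 unit lower. The difference of -0.79 ± 0.22 (SE), or 1.73-fold, was -1.11 without the first knockin array, which on Fgf14 also was the highest of the 3. The 11Q knockin at 5.90, 5.77 and 5.75 lay just below its littermates at 5.94, 5.94 and 6.30, with an 11Q difference of -0.25 ± 0.22 and an adjusted p of 0.978 in limma.

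Scn2b, which also joins the alpha subunit by a disulfide bond, differed by less. Its brightest probe set, 1436134_at, read 8.73, 8.77 and 8.84 in littermates and 8.24, 8.74 and 8.62 in the 118Q knockin, overlapping by 0.01, with a difference of -0.25 ± 0.14. The probe set 1430648_at spread widely, between 4.80 and 6.35 over the study, and differed by -0.04 ± 0.29. On the dim 1457144_at the 118Q groups did not overlap, by 0.02, and the difference was -0.15 ± 0.12, with a 95% interval of -0.40 to 0.11. Scn3b, a non-covalent beta subunit more abundant in the developing brain, differed by 0.00 ± 0.29 on 1435767_at, where the 11Q littermates spread from 1.67 to 3.26.

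**Figure D2:**
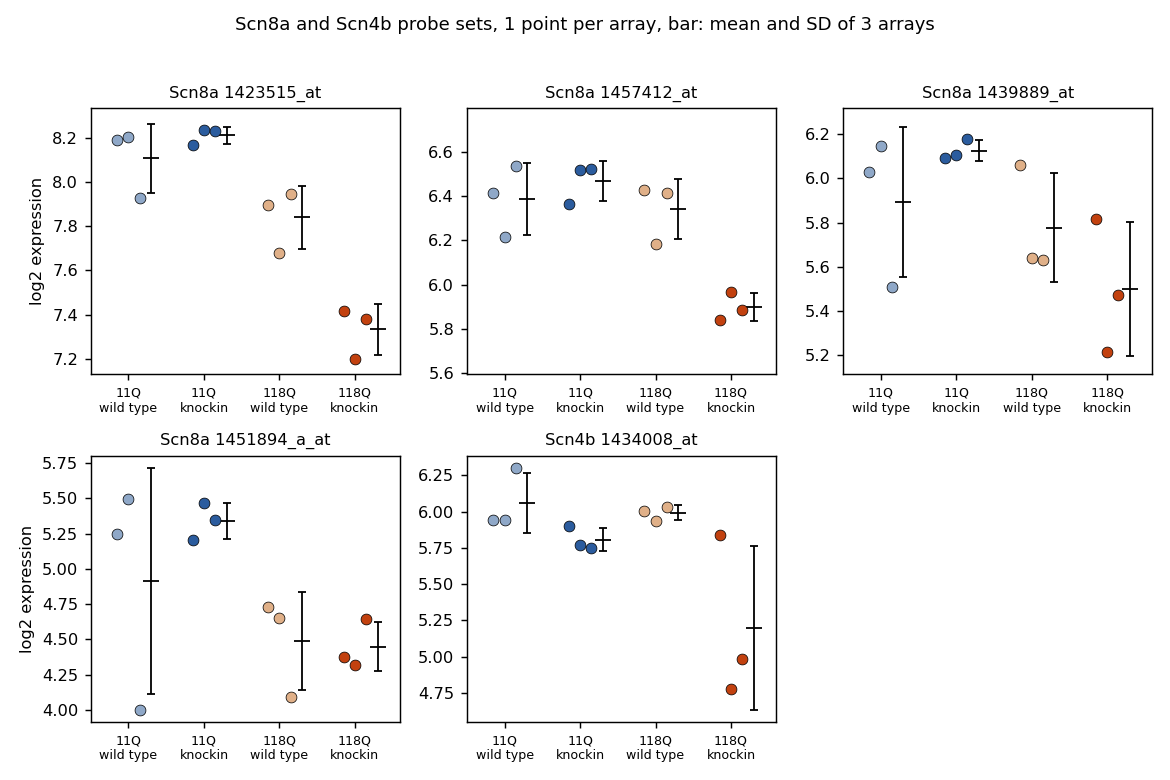
Log2 level of the 4 Scn8a probe sets and the Scn4b probe set above the filter on each array, by group, with the mean and SD of 3 arrays. On Scn8a 1423515_at and 1457412_at the 118Q knockin arrays lie below the other 9, and on Scn4b the first knockin array lies at 5.84, apart from the others at 4.77 and 4.98.

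**Figure D3:**
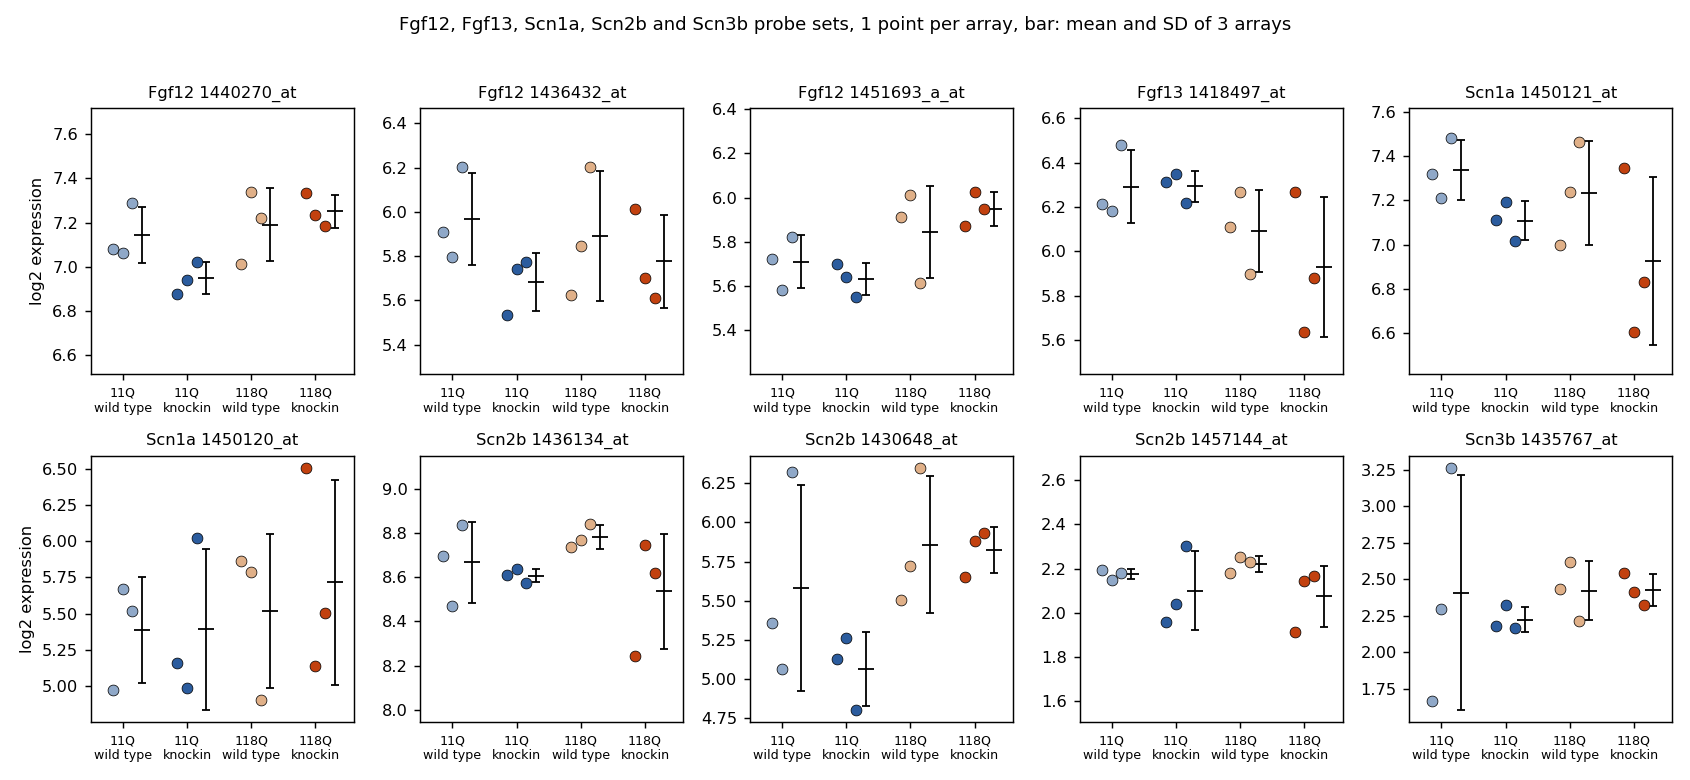
Log2 level of the 10 probe sets of Fgf12, Fgf13, Scn1a, Scn2b and Scn3b above the filter on each array, by group, with the mean and SD of 3 arrays; the vertical axes differ between panels. The 118Q groups overlap on 9 of the 10, and on Scn2b 1457144_at they are apart by 0.02.

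In the 118Q line, 3 of the 18 probe sets passed an adjusted p of 0.05 in limma, all lower. Over all 27060 probe sets, 608 passed, or 2.25%, with 127 higher and 481 lower. The 18 were chosen with this comparison known, so nothing is read from their share. Both groups of arrays were apart, with the knockin lower, for 6 of the 18, against 2492 of all, or 9.21%. The 6 were the 2 Fgf14, 2 Scn8a, 1 Scn2b and 1 Scn4b probe sets described above. The median difference of the 18 was -0.15 and 14 of them lay below 0, while the median of all probe sets was 0.03 and 44.4% lay below 0. The choice of the genes bears on these values as well, so nothing is read from them or from the 6.

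The counts differed with the arrays, the array weights and the probe sets in the fit. With only the 6 arrays of the 118Q line in the fit, 1 of the 18 passed, and 113 of all. With the brightest probe set of each gene, 1 of 8 passed, with 24 genes in all. With array weights, 6 of the 18 and 5973 of all passed. In the 12 fits that left out an array, 2 to 4 of the 18 passed, and the difference of Scn8a 1423515_at lay between -0.59 and -0.44. The count over all probe sets ran in those fits from 144, without the third 118Q wild type array, to 1449, without the first 118Q knockin array.

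The 11Q line addresses the same genes with a tract of normal length, and no probe set passed there. None of the 18 reached an adjusted p of 0.05 or an unadjusted p of 0.05 in limma; the adjusted p ranged from 0.978 to 1.0. Over all probe sets, 0 passed, a share of 0%, and 954 had an unadjusted p below 0.05, with 298 higher and 656 lower. For the bright Fgf14 probe sets the 11Q differences were -0.03 ± 0.20 and -0.01 ± 0.26 (SE), with adjusted p of 0.991 and 0.998. Scn8a 1423515_at and 1457412_at differed by 0.10 ± 0.12 and 0.08 ± 0.12. The 11Q knockin lay below its littermates without overlap for 4 of the 18, against 1660 of all, or 6.13%. They were Fgf12 1440270_at and 1436432_at, Scn1a 1450121_at and Scn4b, by -0.20, -0.29, -0.23 and -0.25. The median of the 18 was -0.04 and that of all -0.03.

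Taking the 11Q difference from the 118Q difference gave -1.61 ± 0.28 (SE) and -1.73 ± 0.37 for the bright Fgf14 probe sets. It gave -0.61 ± 0.17 and -0.52 ± 0.17 for Scn8a and -0.54 ± 0.31 for Scn4b. None of the 18 passed an adjusted p of 0.05 in limma for this difference, and 4 had an unadjusted p below 0.05. Over all 27060 probe sets 26 passed, or 0.0961%, all lower, and 2932 had an unadjusted p below 0.05. The interval for the larger Fgf14 value reached from -2.54 to -0.92. Fgf12, Fgf13 and Scn1a lay between -0.16 and 0.26 in this quantity.

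**Figure D4:**
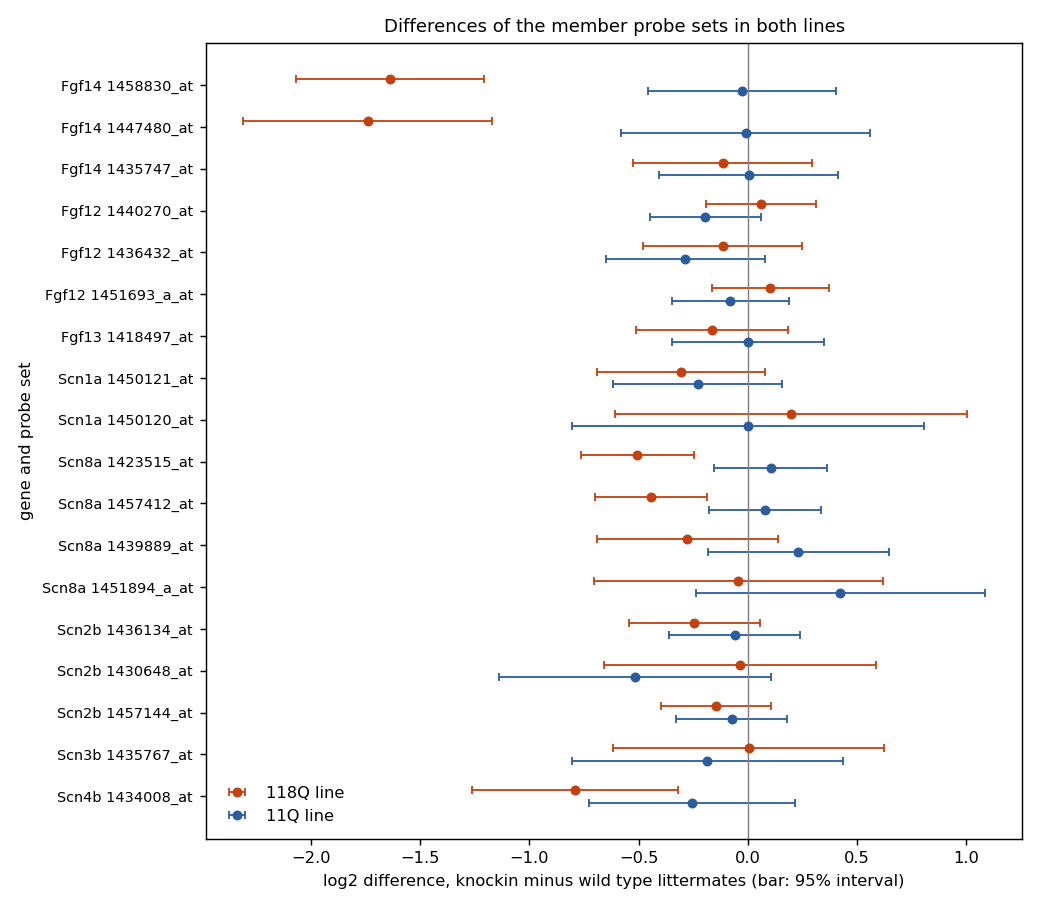
Log2 difference between knockin and wild type littermates for the 18 probe sets above the filter, in the 118Q line and the 11Q line, with 95% intervals from limma. The intervals of both bright Fgf14 probe sets in the 118Q line lie below -1.17, and every 11Q interval includes 0.

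The knockin groups can also be set against each other, since they differ in the tract and in the line. The 118Q knockin lay below the 11Q knockin by -1.98 ± 0.20 (SE) and -1.82 ± 0.26 on the bright Fgf14 probe sets. Scn8a was lower on all 4 probe sets without overlap, by -0.88 ± 0.12, -0.57 ± 0.12, -0.62 ± 0.19 and -0.89 ± 0.31. In this comparison 5 of the 18 passed an adjusted p of 0.05, all lower, against 3684 of all, or 13.6%, and nothing is read from this share either. Arrays did not overlap with the 118Q knockin lower for 6 of the 18, against 4110 of all, or 15.2%. Fgf12 1440270_at and 1451693_a_at and Scn2b 1430648_at lay higher without overlap, by 0.30, 0.32 and 0.76. These were 3 of the 18, against 5843 of all 27060, and nothing is read from them. In the 12 fits that left out an array, 4 to 7 of the 18 passed.

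The wild type groups show how far the lines differ without the allele. None of the 18 passed an adjusted p of 0.05 in limma and 1 had an unadjusted p below 0.05, Scn8a 1423515_at at -0.27 ± 0.12 (SE; unadjusted p = 0.0446, adjusted p = 1.0). Over all probe sets 0 passed, a share of 0%, and 960 had an unadjusted p below 0.05. Fgf14 1458830_at was the 1 probe set of the 18 whose 118Q wild type arrays all lay below the 11Q wild type arrays, against 972 of all, or 3.59%.

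Markers of other cells and the array controls moved with the group in which Fgf14 was low. Of the 14 Purkinje markers, each read by its brightest probe set, the summed level was 115.74 to 116.66 in the 118Q littermates and 105.86 to 113.99 in the knockin. In the 11Q line it was 115.22 to 116.07 and 113.30 to 115.85. Single markers differed in size: Slc1a6, a glutamate transporter, by -1.13, Dner by -1.04, the calcium buffer Calb1 by -0.76, and Pcp2, a classical Purkinje marker, by 0.14. Averaged over the 14 markers as deviations from the 12-array mean, the 3 knockin arrays stood at -0.00, -0.58 and -0.42, in the order 7.01, 5.98 and 6.48 of their Fgf14 levels. The Fgf14 deviation minus this mean was -0.89, -1.33 and -0.99 on those arrays and 0.05, -0.03 and 0.22 in the littermates. In the 11Q line the same quantity was 0.41 to 0.53 in littermates and 0.46 to 0.55 in the knockin, above the 118Q littermates. Fgf14 was chosen on its 118Q difference, so nothing is read from its gap to the marker mean on the 118Q knockin arrays. The part of Purkinje cell RNA in the Fgf14 difference was not tested.

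Granule cells, which also express Fgf14, did not separate the groups. Their 11 markers summed to 95.66 to 96.12 in the 118Q littermates and 94.67 to 96.61 in the knockin. The 9 markers of other cerebellar interneurons summed to 58.54 to 59.44 and 51.98 to 58.54. Microglial markers were higher in the knockin, with a sum of 37.57 to 41.60 against 32.44 to 35.88 over 9 genes, 1 of them below the filter. Endothelial markers were lower, at 27.30 to 30.96 against 31.23 to 33.93 over 7 genes. The part of these differences in the sodium channel values was not tested.

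The 18S control moved with Fgf14 as well, at 9.92 ± 0.35 in the 118Q littermates and 8.80 ± 0.37 in the knockin (SD, n = 3 each). With this signal as a covariate in the fit, the differences were -0.92 and -1.13 for the bright Fgf14 probe sets, -0.30 for Scn8a 1423515_at and 0.01 for Scn4b. Probe sets with small differences moved too, in both directions. Fgf14 1435747_at went from -0.11 to 0.68, Fgf12 1436432_at from -0.11 to 0.57 and Scn1a 1450121_at from -0.31 to 0.38. Scn8a 1451894_a_at went from -0.04 to -0.70. None of the 18, and 0 of all probe sets, then passed an adjusted p of 0.05 in limma, and 4 of the 18 and 1734 of all had an unadjusted p below 0.05. Since the control and the genotype fall together, their parts cannot be told apart. Within the 118Q knockin, the array with the highest Fgf14 also had the highest 18S signal, at 9.23, while the other 2 stood at 8.63 and 8.56 with Fgf14 at 5.98 and 6.48.

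**Figure D5:**
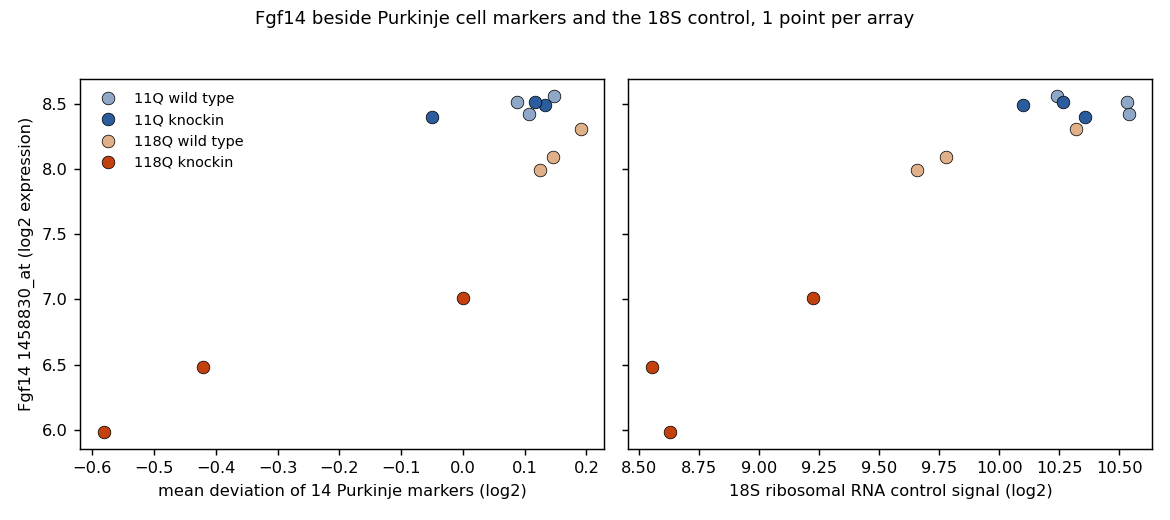
Log2 level of Fgf14 1458830_at on each of the 12 arrays against the mean deviation of 14 Purkinje markers from their 12-array means (left) and against the 18S ribosomal RNA control (right). The 118Q knockin arrays lie at 5.98 to 7.01 with 18S signals of 8.56 to 9.23, apart from the other 9 on both Fgf14 and 18S.

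Other genes of the pathway were taken from lists chosen with earlier results of these data known, so their counts in the 118Q line are a description. The remaining sodium channel and homologous factor genes had 7 probe sets above the filter from 3 genes, Nalcn, Fgf11 and Scn2a. In the 118Q line none passed in limma, 3 had an unadjusted p below 0.05, and the median difference was -0.08. Over all 27060 probe sets, 4876 had an unadjusted p below 0.05 in that line. Nalcn, the sodium leak channel, differed by -0.59 ± 0.17 and -0.50 ± 0.15 (SE) on its probe sets 1457423_at and 1448083_at, with adjusted p of 0.0906 and 0.108. Fgf11, the remaining homologous factor, differed by -0.37 ± 0.13 (adjusted p = 0.156). Scn2a, the alpha subunit of unmyelinated axons, differed by 0.15 ± 0.18 on 1427281_at.

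Partners at the axon initial segment and node had 43 probe sets above the filter from 17 genes, of which 2 fell and 0 rose in the 118Q line, next to 2.25% called over all probe sets. At an unadjusted p below 0.05, 15 were lower and 1 was higher, against 2365 and 2511 of all 27060. Nrcam, an adhesion molecule of the initial segment, fell by 0.57 ± 0.11 (SE) on 1443281_at, with an adjusted p of 0.0251 in limma. Ank3, which codes for ankyrin-G, the scaffold that holds sodium channels there, fell by 0.72 ± 0.16 on 1447259_at, with an adjusted p of 0.0361. Their next probe sets stood at -0.53 ± 0.13 (Nrcam) and -0.39 ± 0.11 (Ank3) and did not pass. The list's median was -0.08, and 14 of the 43 lay lower without overlap, where 9.21% of all probe sets did. In the 11Q line 0 passed in limma, 0 had an unadjusted p below 0.05, and the median was 0.04.

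Enzymes and adaptors that act on sodium channels or homologous factors had 44 probe sets above the filter from 11 genes. None of these passed in limma in the 118Q line. At an unadjusted p below 0.05, 7 were lower and 0 higher, against 2365 and 2511 of all 27060. The lowest p belonged to Csnk2a1, a catalytic subunit of casein kinase, at -0.63 ± 0.18 (SE; adjusted p = 0.0894 in limma). This probe set was dim, with means of 1.48 in the 118Q knockin and 2.10 in littermates against a filter level of 1.58. It passed the filter only through the other groups, so little can be read from its difference. Gsk3b, a kinase known to act on the Fgf14 channel complex, stood at -0.42, -0.31 and -0.36 on 3 probe sets. Secreted growth factors of the family and their receptors, which do not bind the channels in this way, had 18 probe sets above the filter from 10 genes. None passed, 2 had an unadjusted p below 0.05, both higher, against 2511 higher of all, and their median was 0.11. By the lowest p, Fgfr3 stood at 0.49 ± 0.21 (SE), Fgfr4 at 0.29 ± 0.13, Fgf1 at 0.24 ± 0.15 and Fgf7 at -0.43 ± 0.28. In the 11Q line 0 probe sets of these lists passed in limma. An unadjusted p below 0.05 was found for 1 of the enzymes and adaptors (higher) and 2 of the growth factors and receptors (lower). Over all 27060 probe sets it was found for 954. The lowest 11Q value of the latter list was that of Kl, a co-receptor that is also on the choroid plexus marker list, at -3.09. The 5 choroid plexus markers summed to 33.62 to 35.86 in the 11Q littermates and 13.26 to 32.95 in the 11Q knockin, and to 15.78 to 38.02 and 18.53 to 33.60 in the 118Q groups. The part of choroid plexus RNA in these values was not tested.

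Across the 12 arrays, the probe sets of other genes most like Fgf14 1458830_at were those of Atp2a2, Ttc3, Rbm6, Cltc and Usp9x, with a Pearson r of 0.987 to 0.981. These arrays share the gap between the 118Q knockin and the rest, so the values are a description of that gap and carry no p. Atp2a2, which pumps calcium into the endoplasmic reticulum, differed by -0.69 ± 0.13 (SE) in the 118Q line and 0.02 in the 11Q line. Rbm6, an RNA-binding protein gene, differed by -1.08 ± 0.13. By deviations from the group means, the most alike were Plxdc1, Pcbp1, Foxp2, Hnrnpk and Pbrm1, with r of 0.976 to 0.960. Foxp2, a transcription factor of Purkinje cells, is also in the Purkinje marker list.

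Within the 8 genes, likeness to Fgf14 1458830_at was highest for the other bright Fgf14 probe set, with r of 0.978 over the 12 arrays and 0.921 for deviations from group means. Scn8a 1423515_at had r of 0.936 and 0.533, and Scn8a 1457412_at 0.868 and -0.07. Scn4b had 0.864 and 0.865 and Scn1a 1450121_at 0.680 and 0.873. The deviations of Fgf14 were widest in the 118Q knockin, with an SD of 0.51 against 0.06 to 0.16 in the other groups, so the second value of each pair rests mostly on those 3 arrays. In the 11Q littermates the order differed, since the array with the highest Fgf14, 8.56, had Scn4b at 5.94 and the array with Scn4b at 6.30 had Fgf14 at 8.52. Fgf12 1451693_a_at had the lowest value over the arrays, at -0.70.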

How the data were processed

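Total RNA was purified on RNeasy columns with a DNase step and labelled with biotin in one cycle, per the labels' protocols. The authors deposited log2 expression levels per probe set, computed with RMA per the submitters' processing notes. Its version is not given in the sources used here. No further normalization was applied. Sorted values differ between arrays, with medians of 2.21 to 2.38, and the number of arrays limits the precision. Of 45101 probe sets, 34958 had 1 gene symbol in the array annotation, 932 several and 9211 none, and members were taken from those with 1 symbol.

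A filter removed the dimmest 40% of probe sets by mean level. A group-means model on all arrays was fitted (limma 3.58.1, R 4.3.3). It had 8 residual and 4.58 prior degrees of freedom. Tests were two-sided, with Benjamini-Hochberg adjustment over 27060 probe sets at 0.05. Errors of differences are standard errors of this fit, with a median of 0.154 in the 118Q line. The genes, lists and tests were chosen with earlier results of these data known. Named genes followed a rule: the members, Cacna1a, up to 4 probe sets of each list with the lowest unadjusted p in the 118Q line, and the 5 most like Fgf14 by each measure. The fit was tested on simulated data. Alternatives varied the filter, the probe set per gene, normalization, variance model, arrays in the fit, replicate block, covariate, gene span trend and threshold.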

Additional observations from a re-analysis of the deposited data

How the results depend on the processing

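The differences of the 18 probe sets were recomputed under the alternatives, 1242 values in all. Of these, 1198 moved by less than the replicate spread and 44 by more. Changes of filter, probe set per gene, intensity trend, replicate block or arrays of the other line cannot move a difference within a line. The 1198 therefore include values fixed in advance. No called value changed sign, but some uncalled ones did. With the 18S covariate, Scn4b went from -0.79 to 0.01 and Fgf14 1435747_at from -0.11 to 0.68 in the 118Q line. The counts in the 11Q line and between wild types were 0 of the 18 under every alternative run. In the 118Q line 3 of the 18 were called. The count was 1 with the brightest probe set of each gene, 1 with only the groups compared, 6 with array weights, 0 with the 18S covariate, and 5 at an adjusted p below 0.1. For the difference of the 2 effects, none of the 18 was called. With the lowest 60% removed, quantile normalization, an intensity trend or an adjusted p below 0.1 there was 1, and with array weights 4. Leaving out 1 array gave 0 to 2, the highest without the first 118Q knockin array and 1 without the second 118Q wild type array. For 118Q knockin against 11Q knockin 5 were called. The count was 2 with the brightest probe set, 13 with array weights, 0 with the 18S covariate, and 8 at an adjusted p below 0.1. It was also 8 without the wild type arrays numbered 3 of both lines, a setting chosen after seeing the data, where 5115 of all probe sets passed. Leaving out 1 array gave 2 to 4 in the 118Q line and 4 to 7 between knockins. The cause of these changes was not tested. Over all probe sets, the 608 calls in the 118Q line became 24, 113, 5973, 0 and 1314 under the alternatives in the order given for that line, 15 with the span trend removed, and 144 to 1449 with 1 array left out. The 26 calls for the difference became 32 with the lowest 60% removed, 42 with quantile normalization and 34 with an intensity trend. They became 1440 with array weights and 69 at an adjusted p below 0.1. There were 0 with the brightest probe set, the 18S covariate or the span trend removed, and 0 to 156 with 1 array left out. The 3684 calls between knockins became 1732, 13434, 0 and 5942 in the order given above, 1160 with the span trend removed, and 1590 to 4525 with 1 array left out. Only the groups compared gave 7 calls in the 11Q line, none of them among the 18, where all arrays gave 0.

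Knockin and littermate arrays of a line share replicate numbers. Same-numbered arrays had deviations correlated at 0.21, -0.16 and 0.06 in the 11Q line and -0.08, -0.09 and 0.02 in the 118Q line. Arrays of a line with different numbers had -0.22 to 0.24. These values show no pairing by number, but so few arrays cannot exclude one. With the number as a replicate block, 2 of the 18 were called in the 118Q line, 0 in the 11Q line and 0 for the difference. Over all probe sets the block gave 470, 0 and 9. The block was not run between lines, and a fit of only the groups compared was not run for the difference, which uses every group.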
